A study of Homo sapiens with 18 samples.

Results

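Nucleotide synthesis genes encode the enzymes that build purine and pyrimidine nucleotides from small precursors, turn ribonucleotides into deoxynucleotides for DNA, and recover free bases and nucleosides. A list of 37 such genes was sorted by function into 13 genes of purine synthesis, 6 of pyrimidine synthesis, 9 of deoxynucleotide supply and 9 of salvage and uptake. Of these, 35 of the 18132 genes on the arrays were measured by a probe set with 1 gene symbol. NME1 and NME2, nucleoside diphosphate kinases, had only probe sets that also name the locus joining them and were not analysed here.

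Expression was measured on 18 Affymetrix arrays of WiDr and HT29, cell lines from human colorectal cancer, in 6 groups of 3. The groups were WiDr treated with AZ628 (a BRAF inhibitor in the labels), WiDr given vehicle, WiDr transduced with shRNA against IKKα, WiDr transduced with control shRNA, HT29 treated with AZ628 and HT29 given vehicle. Both lines are known to carry an activated BRAF, and WiDr is thought to descend from HT29, so they are related models. The dose and time of AZ628, the number of shRNA sequences and whether replicate arrays came from separate cultures are not given in the sources used here, so p-values measure only how these arrays vary, which may be technical.

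Purine synthesis assembles its ring stepwise on phosphoribosyl pyrophosphate (PRPP), starting with the committed step of PPAT and ending at IMP, from which AMP and GMP are made. Pyrimidine synthesis closes its ring first, through CAD and DHODH, and joins it to PRPP at UMPS, before CTP synthase makes CTP from UTP. Ribonucleotide reductase, made of RRM1 and RRM2, and thymidylate synthase, TYMS, supply DNA precursors. In dividing cells these pathways are known to be fed by growth signalling, and several of the deoxynucleotide genes are known to be transcribed around S phase.

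All values are log2 signals of 1 probe set per gene, and a difference is in log2 units, so that -1 is a 2-fold lower signal. A gene rose or fell where limma gave a Benjamini-Hochberg adjusted p below 0.05 over all 18132 genes. Groups of 3 arrays did not overlap for 9260 of these genes with AZ628 in WiDr and 8908 in HT29. They did not for 8459 with IKKα shRNA against control shRNA, 8626 against vehicle, and 7301 for control shRNA against vehicle. Separation of groups alone is therefore common. Within groups the arrays correlated with r between 0.9971 and 0.9985, and no 2 arrays were identical. The signal of CHUK, the gene of IKKα, lay between 7.23 and 7.68 on the IKKα shRNA arrays and between 9.45 and 9.78 on the control shRNA arrays, a difference of -2.12 ± 0.12 (SE, adjusted p = 4.11e-10). Of 10 markers of colorectal epithelium, 5 rose and 3 fell with AZ628 in each line, and 3 fell and none rose with IKKα shRNA against control shRNA. Of all genes 23.4% rose and 21.1% fell with AZ628 in WiDr, and 22.5% and 21.0% in HT29. With IKKα shRNA 15.9% rose and 19.0% fell. CDH1, KRT19, VIL1 and CDH17 averaged higher with AZ628 in both lines. KRT20 averaged 11.07 in WiDr with AZ628 and 12.29 with vehicle, and 10.13 in HT29 with AZ628 and 11.23 with vehicle, while VIL1 averaged 9.02 with IKKα shRNA and 10.18 with control shRNA. CD14, a leukocyte marker, averaged 4.56 with IKKα shRNA and 5.81 with control shRNA, while PTPRC, CD3E and CD68 did not pass. Among fibroblast markers LUM stood apart, with 6.32 with IKKα shRNA and 3.49 with control shRNA. It had 4.38 in WiDr with AZ628 and 3.13 with vehicle, and 6.18 in HT29 with AZ628 and 4.41 in HT29 with vehicle. The part of these markers in the results was not tested. Presence or absence of a marker cannot be read from the signal of its probe set, since levels of different probe sets are not comparable.

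Promoter windows of 300 bases, 250 before to 50 after the annotated start, were taken from RefSeq (GRCh38.p14) for the 33 measured members with an entry, which gave 49 windows. They were searched on both strands for the E-box CACGTG, known to be bound by MYC and related factors, and for the E2F-type letters TTTCCCGC and TTTGGCGC. The E-box occurred in 9 of the 49 windows (18.4%), against 7.26% of all 35116 promoters, and belonged to PPAT, PAICS, ATIC, MTHFD1, AK4, DHODH, DCK and SLC29A1. The E2F-type letters occurred in 5 windows (10.2%), against 2.27% of all promoters, those of DUT, TYMS, PRPS2, GART and DCK. CCAAT was found in 30.6% of the members' windows, against 34.6% of all, and TATAAA in 4.08%, against 11.5%. A match describes letters in a window and shows no binding.

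The 60 bases before an annotated start of DUT (chr15:48332137-48332196), TYMS (chr18:657593-657652) and PRPS2 (chrX:12791352-12791411), all on the plus strand, are shown because these genes hold E2F-type letters, in capitals, close to that start, and because all 3 fell with both AZ628 and IKKα shRNA, as described below. Where a gene had several annotated starts, that with most marked letters was used, so the place of the letters follows from this choice. The DUT gene begins earlier, at 48331095. GART and DCK also have such letters but did not pass with IKKα shRNA (-0.05 and 0.04 against control shRNA). RRM1, PPAT, TK1 and APRT fell with both and have none in their windows. A link of letters and falls was not tested.
DUT: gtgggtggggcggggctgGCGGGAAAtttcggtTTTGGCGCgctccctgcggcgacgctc
TYMS: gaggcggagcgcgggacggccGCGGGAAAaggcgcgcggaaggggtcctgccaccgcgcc
PRPS2: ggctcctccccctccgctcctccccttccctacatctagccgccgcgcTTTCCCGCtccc
The same stretch of ATIC (chr2:215311999-215312058) and MTHFD1 (chr14:64388293-64388352), also on the plus strand, carries the E-box in capitals.
ATIC: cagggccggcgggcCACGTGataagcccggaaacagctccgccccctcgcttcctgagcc
MTHFD1: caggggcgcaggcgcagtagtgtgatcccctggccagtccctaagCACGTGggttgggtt
CTPS1 (chr1:40979636-40979695) and CAD (chr2:27217309-27217368), the pyrimidine genes with the largest falls under AZ628, hold neither set of letters in this stretch and are shown beside them, on the plus strand.
CTPS1: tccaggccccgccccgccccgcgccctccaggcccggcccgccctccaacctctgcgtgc
CAD: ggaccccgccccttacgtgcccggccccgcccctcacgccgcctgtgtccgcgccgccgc

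PPAT and PAICS lie head to head on chromosome 4, with annotated starts 137 bases apart, and their shared promoter is shown because the 2 genes moved unequally with IKKα shRNA. The first sequence runs from PAICS to PPAT on the minus strand (chr4:56435616-56435752), and the second (chr4:56435782-56435807, minus strand) holds in capitals the one E-box that falls in the windows of both genes.
PPAT and PAICS: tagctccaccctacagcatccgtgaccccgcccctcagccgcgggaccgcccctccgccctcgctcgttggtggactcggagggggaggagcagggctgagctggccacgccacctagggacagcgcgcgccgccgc
E-box of both windows: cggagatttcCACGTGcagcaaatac

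With AZ628, nucleotide synthesis genes fell in both lines and in all branches. In WiDr 30 of the 35 members fell and 2 rose, against 21.1% of all genes that fell and 23.4% that rose. The members' median difference was -1.05, a 2.06-fold lower signal, while the median of all genes was -0.0005. A fall of at least 2-fold was passed by 18 members, against 4.35% of all genes. In HT29 31 members fell and 1 rose, against 21.0% and 22.5% of all genes, the median difference was -1.02, and 19 members fell at least 2-fold, against 4.00% of all genes. The purine branch had the lowest median (-1.28 in WiDr and -1.32 in HT29), followed by the pyrimidine branch (-1.15 and -1.16), the deoxynucleotide branch (-0.92 and -1.02) and the salvage branch (-0.59 and -0.75).

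**Figure D1:**
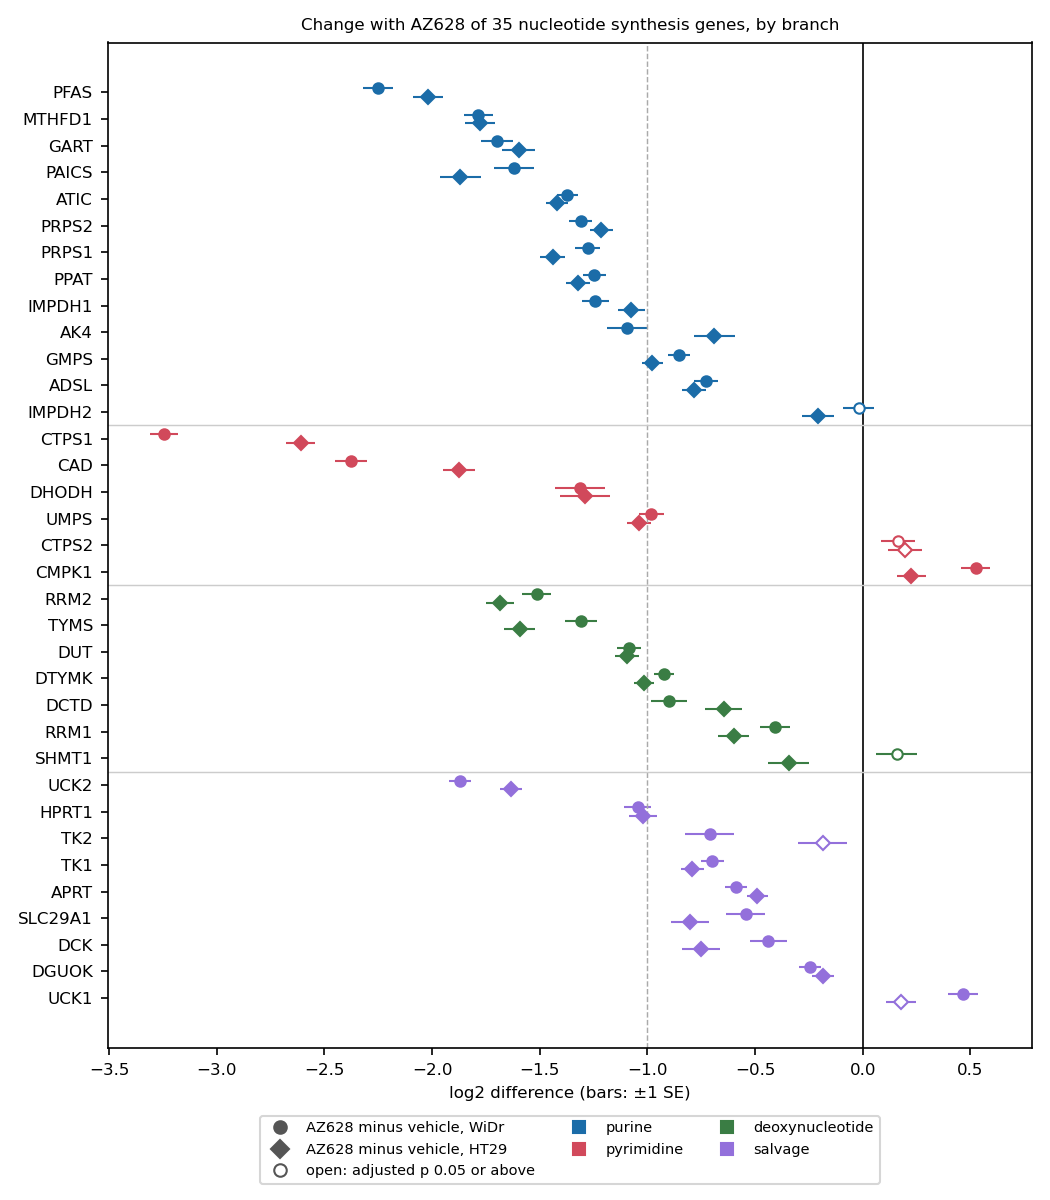
Log2 difference, AZ628 minus vehicle, of each of the 35 measured genes (rows, grouped by branch and ordered by the WiDr value), in WiDr (circles) and HT29 (diamonds). Bars are 1 SE, open symbols have an adjusted p of 0.05 or above, and the dashed line marks a 2-fold lower signal. CTPS1 lies farthest left in both lines at -3.25 and -2.61, and CMPK1 is right of 0 in both at 0.52 and 0.23.

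Purine synthesis fell at nearly every step. PPAT, the committed step, had signals of 9.84, 9.71 and 9.78 in WiDr with AZ628, against 11.03, 10.96 and 11.08 with vehicle, and of 9.37, 9.33 and 9.37 in HT29 with AZ628, against 10.64, 10.74 and 10.65 with vehicle. The groups did not overlap in either line, and the differences were -1.25 ± 0.05 in WiDr and -1.32 ± 0.05 in HT29 (SE, n = 3 arrays a group, limma adjusted p = 3.22e-12 and 2.22e-12). PFAS, which adds an amino group from glutamine at a later step, had 7.35, 7.18 and 7.18 in WiDr with AZ628, against 9.59, 9.39 and 9.48 with vehicle, and 7.85, 7.79 and 7.77 in HT29 with AZ628, against 9.74, 9.87 and 9.84 with vehicle. PFAS was the purine gene with the largest fall in both lines, -2.25 ± 0.07 and -2.02 ± 0.07, with no overlap of the groups. Its 4 probe sets did not move equally, from -2.25 to -0.17 in WiDr, and the one used here is of a type that can also bind related transcripts.

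MTHFD1, a folate enzyme that supplies the one-carbon units of the purine ring, had 8.62, 8.56 and 8.44 in WiDr with AZ628, against 10.44, 10.26 and 10.27 with vehicle, and 8.01, 7.85 and 8.01 in HT29 with AZ628, against 9.68, 9.77 and 9.75 with vehicle. Every AZ628 array lay below every vehicle array, and the difference was -1.78 ± 0.07 in each line. PAICS, the neighbour of PPAT and the enzyme of 2 middle steps, had 10.33, 10.32 and 10.20 in WiDr with AZ628, against 12.05, 11.77 and 11.88 with vehicle, and 9.70, 9.38 and 9.66 in HT29 with AZ628, against 11.34, 11.55 and 11.45 with vehicle. PAICS thus fell by 1.62 and 1.87 in the 2 lines, and both of its probe sets fell in each. GART, an enzyme of 3 steps, differed by -1.70 ± 0.07 and -1.60 ± 0.07, with a spread over its 5 probe sets from -2.17 to -0.98 in WiDr and from -1.90 to -0.36 in HT29, all of them passing.

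The genes that make PRPP, PRPS1 and PRPS2, fell alike in WiDr, by 1.28 and 1.31, and fell by 1.44 and 1.21 in HT29. ATIC, the last enzyme before the finished ring of IMP, fell by 1.37 and 1.42. ADSL, which acts once in the pathway to IMP and again in making AMP, fell by 0.73 and 0.78, and GMPS, which completes GMP, fell by 0.85 and 0.98. AK4, a mitochondrial adenylate kinase, fell by 1.09 and 0.69. For ADSL and AK4 only 1 of 2 probe sets fell in each line.

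The 2 IMP dehydrogenases, isozymes of the committed step towards GMP, did not move alike. IMPDH1 had 10.10, 10.12 and 10.15 in WiDr with AZ628, against 11.45, 11.29 and 11.35 with vehicle, and 10.54, 10.35 and 10.58 in HT29 with AZ628, against 11.58, 11.56 and 11.56 with vehicle. IMPDH2 had 12.33, 12.36 and 12.38 in WiDr with AZ628, against 12.36, 12.38 and 12.40 with vehicle, and 12.05, 12.05 and 11.95 in HT29 with AZ628, against 12.12, 12.26 and 12.28 with vehicle. IMPDH1 fell by 1.24 and 1.07, whereas IMPDH2 differed by -0.02 ± 0.07 in WiDr (adjusted p = 0.88, groups overlapping) and fell by 0.21 in HT29 (adjusted p = 0.0264). The 4 probe sets of IMPDH1 all fell, but from -1.26 to -0.31 in WiDr and from -1.07 to -0.57 in HT29. The 6 of IMPDH2 ranged from -0.13 to -0.02 in WiDr and from -0.31 to -0.19 in HT29. The size of the contrast therefore depends on the probe set. Repeating the quantile normalization moved the HT29 value of IMPDH2 to -0.09 and ended its call, as did leaving out HT29 AZ628 replicate 3 (adjusted p = 0.102) or HT29 vehicle replicate 2 or 3 (adjusted p = 0.0833 and 0.0944).

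In the pyrimidine branch CTPS1, a CTP synthase, had 7.71, 7.55 and 7.56 in WiDr with AZ628, against 10.87, 10.78 and 10.91 with vehicle, and 8.45, 8.22 and 8.43 in HT29 with AZ628, against 10.93, 11.00 and 10.99 with vehicle. No other member changed more in either line, and its signal was 9.49-fold lower in WiDr (-3.25 ± 0.07, adjusted p = 3.64e-16) and 6.11-fold lower in HT29 (-2.61 ± 0.07, adjusted p = 8.99e-15). All 4 of its probe sets fell in both lines, with differences from -3.25 to -2.43 in WiDr. Counted from the largest fall, CTPS1 ranked 17 of the 18132 genes in WiDr and 28 in HT29. CTPS2, its isozyme, had 8.69, 8.78 and 8.77 in WiDr with AZ628, against 8.56, 8.65 and 8.53 with vehicle, and 9.78, 9.73 and 9.65 in HT29 with AZ628, against 9.55, 9.46 and 9.56 with vehicle. CTPS2 thus lay slightly higher on every AZ628 array, by 0.17 and 0.20, which did not pass (adjusted p = 0.107 and 0.0533). The HT29 value passed in 5 processing alternatives (adjusted p between 0.0316 and 0.0484) and without HT29 AZ628 replicate 3 (0.0473). The other of its 2 probe sets went the other way, at -0.05 in WiDr and -0.19 in HT29, and did not pass. Over the alternatives the HT29 value was as low as 0.005, with adjusted p up to 0.965, so a rise of CTPS2 rests on the probe set used.

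CAD, the enzyme of the first 3 steps of pyrimidine synthesis, had 6.61, 6.67 and 6.68 in WiDr with AZ628, against 9.12, 9.00 and 8.98 with vehicle, and 7.47, 7.54 and 7.21 in HT29 with AZ628, against 9.26, 9.27 and 9.33 with vehicle. The groups were far apart in both lines, at 5.20-fold lower (-2.38 ± 0.07, adjusted p = 4.15e-14) and 3.67-fold lower (-1.88 ± 0.07, adjusted p = 1.21e-12). DHODH, the mitochondrial step of the pathway, fell by 1.31 and 1.29, and UMPS, which makes UMP, fell by 0.98 and 1.04. CMPK1, which adds a phosphate to UMP and CMP, was the exception and rose by 0.52 in WiDr (12.45, 12.55 and 12.37 with AZ628, against 11.98, 11.84 and 11.96 with vehicle). In HT29 it rose by 0.23 (12.09, 12.04 and 12.14 with AZ628, against 11.80, 11.96 and 11.83 with vehicle), a call that was lost when its probe sets were averaged (adjusted p = 0.117).

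**Figure D2:**
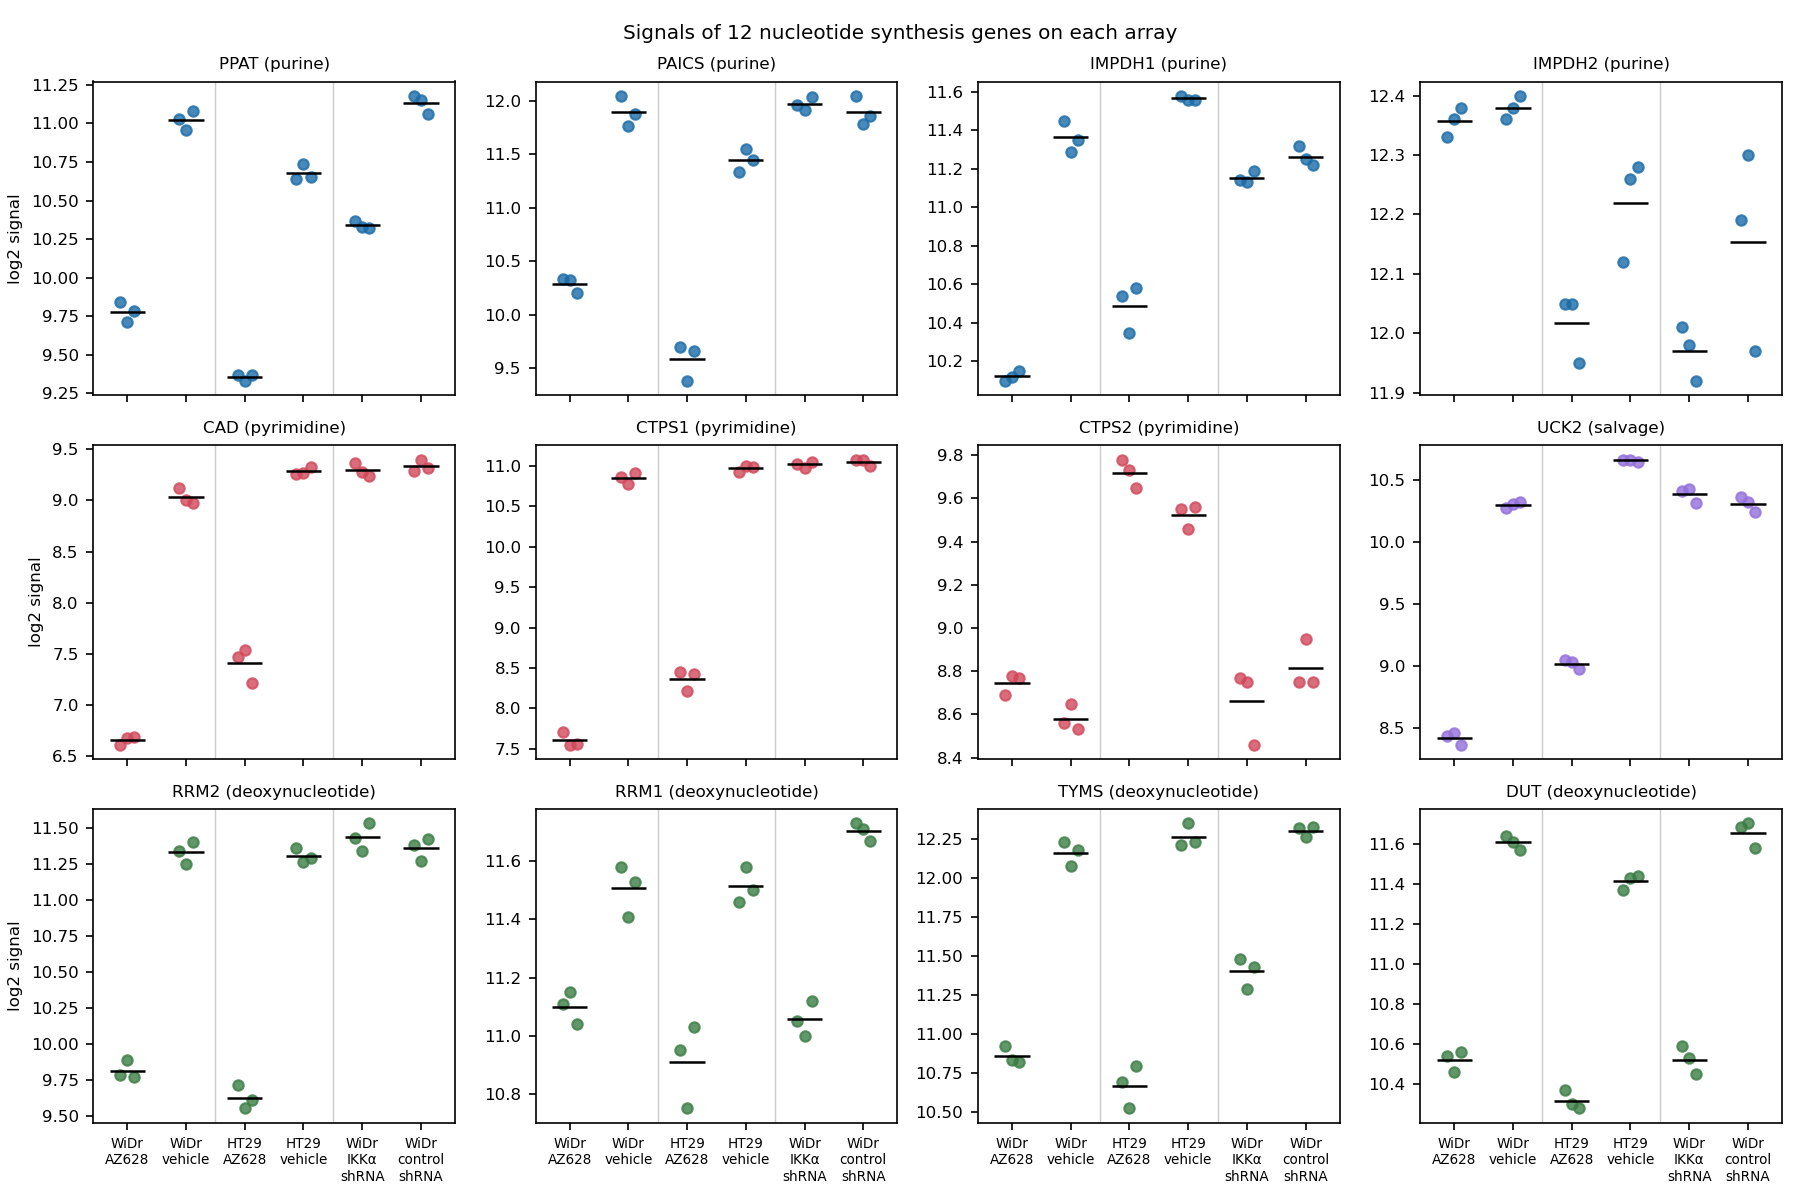
Log2 signal of 12 genes on each of the 18 arrays (dots, 3 a group, with the group mean as a line), a panel per gene with its own vertical scale and colours by branch. CTPS1, CAD, UCK2 and RRM2 are low on the AZ628 arrays of both lines alone, while PPAT, TYMS, RRM1 and DUT are low on the AZ628 arrays and on the IKKα shRNA arrays.

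Among the deoxynucleotide genes both subunits of ribonucleotide reductase fell, RRM2 by more. RRM2, the subunit known to limit the enzyme over the cell cycle, had 9.78, 9.89 and 9.77 in WiDr with AZ628, against 11.34, 11.25 and 11.40 with vehicle, and 9.71, 9.55 and 9.61 in HT29 with AZ628, against 11.36, 11.26 and 11.29 with vehicle. RRM1, the large subunit, had 11.11, 11.15 and 11.04 in WiDr with AZ628, against 11.58, 11.41 and 11.53 with vehicle, and 10.95, 10.75 and 11.03 in HT29 with AZ628, against 11.46, 11.58 and 11.50 with vehicle. Neither gene's groups overlapped, and the differences were -1.51 ± 0.07 and -1.68 ± 0.07 for RRM2, and -0.41 ± 0.07 and -0.60 ± 0.07 for RRM1.

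TYMS, which makes dTMP and is the target of fluorouracil, had 10.92, 10.83 and 10.82 in WiDr with AZ628, against 12.23, 12.08 and 12.18 with vehicle, and 10.69, 10.52 and 10.79 in HT29 with AZ628, against 12.21, 12.35 and 12.23 with vehicle. It fell by 1.31 and 1.59 with no overlap. DUT, which removes dUTP and provides dUMP for TYMS, fell by 1.08 and 1.10, DTYMK, the dTMP kinase, by 0.92 and 1.02, and DCTD, which makes dUMP from dCMP, by 0.90 and 0.65. SHMT1, a folate enzyme of the thymidylate cycle, differed by 0.16 ± 0.10 in WiDr (adjusted p = 0.214, and 0.27 with adjusted p = 0.0181 without WiDr vehicle replicate 1) and fell by 0.34 in HT29 (adjusted p = 0.00682).

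In the salvage branch UCK2, a uridine and cytidine kinase, had 8.44, 8.46 and 8.37 in WiDr with AZ628, against 10.27, 10.30 and 10.32 with vehicle, and 9.05, 9.03 and 8.98 in HT29 with AZ628, against 10.66, 10.66 and 10.64 with vehicle. It fell by 1.87 and 1.63 without overlap (adjusted p = 1.04e-14 and 8.01e-14), though only 1 of its 2 probe sets fell, the other giving -0.29 in WiDr. Its isozyme UCK1 had 7.72, 7.72 and 7.84 in WiDr with AZ628, against 7.21, 7.35 and 7.32 with vehicle, and rose by 0.47 (adjusted p = 2.01e-05). In HT29 UCK1 differed by 0.18 (adjusted p = 0.0509), and passed without HT29 AZ628 replicate 3 or HT29 vehicle replicate 1 (adjusted p = 0.0236 and 0.0241).

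HPRT1, which recovers hypoxanthine and guanine, had 10.28, 10.35 and 10.25 in WiDr with AZ628, against 11.44, 11.24 and 11.34 with vehicle, and 10.34, 10.25 and 10.39 in HT29 with AZ628, against 11.27, 11.46 and 11.31 with vehicle, falling by 1.05 and 1.02. TK1, the cytosolic thymidine kinase, had 10.97, 10.98 and 11.02 in WiDr with AZ628, against 11.79, 11.61 and 11.66 with vehicle, and 11.02, 11.02 and 11.08 in HT29 with AZ628, against 11.79, 11.90 and 11.81 with vehicle. In neither gene did an AZ628 array reach a vehicle array, and TK1 fell by 0.70 and 0.79. APRT, the adenine counterpart of HPRT1, fell by 0.59 and 0.49, DCK, the deoxycytidine kinase, by 0.44 and 0.75, and DGUOK, the mitochondrial deoxyguanosine kinase, by 0.25 and 0.18. The DGUOK call in HT29 ended with the arrays of this comparison alone (adjusted p = 0.0554).

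SLC29A1, a nucleoside transporter of the plasma membrane, had 6.68, 6.84 and 6.71 in WiDr with AZ628, against 7.39, 7.29 and 7.18 with vehicle, and 6.85, 6.61 and 6.48 in HT29 with AZ628, against 7.57, 7.35 and 7.43 with vehicle. The falls of 0.54 and 0.80 rest on 1 of its 3 probe sets, whose range in WiDr was -0.54 to 0.23, and averaging the probe sets ended the WiDr call (-0.10, adjusted p = 0.309). TK2, the mitochondrial thymidine kinase, fell by 0.71 in WiDr and differed by -0.19 in HT29 (adjusted p = 0.215), where the average of its probe sets passed (-0.25, adjusted p = 0.0126).

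The contrast between isozymes was examined within arrays, as the signal of one gene minus that of its partner, so that the offset between probe sets cancels between groups. The change of CTPS1 exceeded that of CTPS2 by -3.41 in WiDr and -2.81 in HT29. For UCK2 minus UCK1 the values were -2.34 and -1.81, for IMPDH1 minus IMPDH2 -1.22 and -0.87, and for RRM2 minus RRM1 -1.11 and -1.08. In these 4 pairs the AZ628 and vehicle arrays were fully separated in both lines, and each two-sided exact permutation p was 0.1, the smallest that 3 against 3 arrays allow. PRPS1 minus PRPS2 changed by 0.03 in WiDr, with overlapping groups (exact permutation p = 0.5), and by -0.23 in HT29 (exact permutation p = 0.1). TK1 minus TK2 likewise changed by 0.01 in WiDr, with overlapping groups (exact permutation p = 1), and by -0.61 in HT29 (exact permutation p = 0.1).

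The 2 lines gave similar values gene by gene. Of the 35 members, 29 fell in both lines, CMPK1 rose in both, none passed in opposite directions, and 17 fell at least 2-fold in both. The shares of all genes that did so in both lines were not taken, so whether the members stand out here was not tested. Over the 35 genes, which are not independent replicates and share the array type and probe sets, the differences in WiDr and HT29 correlated with Pearson r = 0.953 and Spearman rho = 0.954. The difference between the lines, taken as the HT29 change less the WiDr change, passed upward for 3 members, against 4.06% of all genes, and downward for 1, against 5.13%. CTPS1 (0.64 ± 0.09, adjusted p = 0.000229) and CAD (0.50 ± 0.10, adjusted p = 0.00429) had fallen less in HT29. TK2 (0.52 ± 0.16, adjusted p = 0.0499) fell in WiDr, with 5.65, 5.31 and 5.38 with AZ628 against 6.06, 6.24 and 6.17 with vehicle, while the HT29 arrays overlapped at 5.93, 6.15 and 5.92 with AZ628 against 6.34, 6.12 and 6.10 with vehicle. SHMT1 (-0.50 ± 0.14, adjusted p = 0.0263) was lower in HT29 alone, with 9.28, 9.19 and 9.30 with AZ628 against 9.63, 9.61 and 9.55 with vehicle, whereas its WiDr arrays overlapped at 8.92, 9.03 and 8.97 with AZ628 against 9.05, 8.52 and 8.88 with vehicle. The TK2 call ended when the probe sets were averaged (adjusted p = 0.161) and without any one of 10 of the 12 arrays compared (highest adjusted p = 0.128, without HT29 AZ628 replicate 2). The SHMT1 call ended with the arrays of this comparison alone (adjusted p = 0.0625) and without WiDr AZ628 replicate 2, HT29 AZ628 replicate 2, HT29 vehicle replicate 1 or HT29 vehicle replicate 2 (adjusted p = 0.0643, 0.0665, 0.057 and 0.0518).

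A list of 18 S phase and mitosis markers, among them MKI67, PCNA and the MCM genes, moved with the members. All 18 fell with AZ628 in both lines, with medians of -1.40 in WiDr and -1.44 in HT29. Their summed signal was 20623 to 21571 in WiDr with AZ628, against 41957 to 45691 with vehicle, and 17597 to 17923 in HT29 with AZ628, against 38795 to 41289 with vehicle. Their part in the falls of the members was not tested, and in bulk RNA fewer cells in S phase and less RNA per cell cannot be told apart.

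With IKKα shRNA fewer members passed and their differences were smaller. Against control shRNA 17 of the 35 fell and none rose, where 19.0% of all genes fell and 15.9% rose, and the members' median was -0.19. By branch 7 of 13 purine, 2 of 6 pyrimidine, 5 of 7 deoxynucleotide and 3 of 9 salvage genes fell. DUT was the one member that fell at least 2-fold, against 2.25% of all genes. Among the markers of S phase and mitosis 11 of 18 fell and none rose, with summed signals of 37032 to 38522 with IKKα shRNA against 46119 to 47776 with control shRNA, and their part was not tested.

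**Figure D3:**
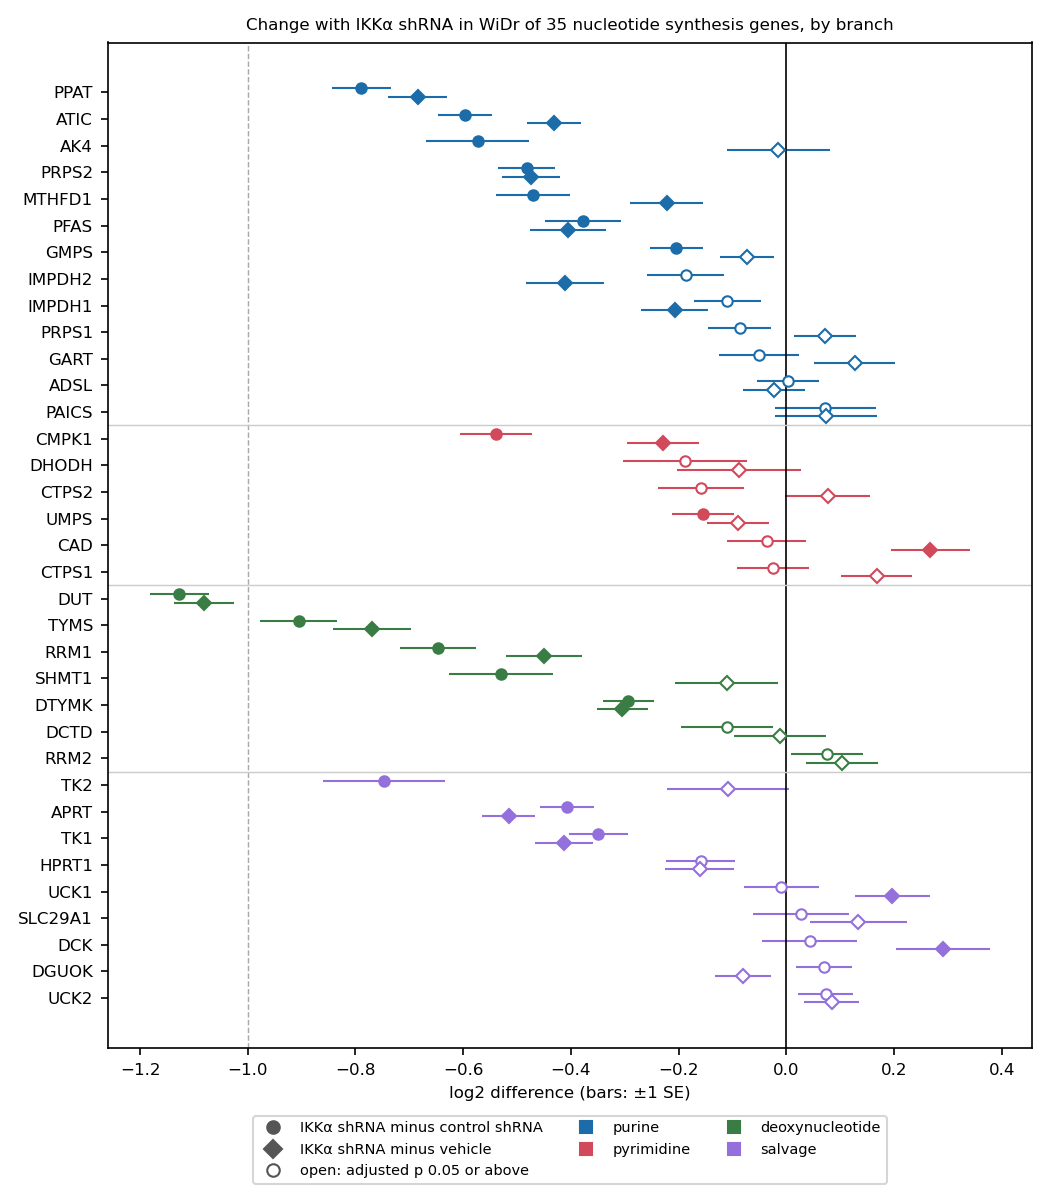
Log2 difference of the 35 measured genes in WiDr (rows, grouped by branch and ordered by the first comparison), IKKα shRNA minus control shRNA (circles) and IKKα shRNA minus vehicle (diamonds), which share the IKKα shRNA arrays. Bars are 1 SE and open symbols have an adjusted p of 0.05 or above. DUT, TYMS and PPAT lie left of the other genes against both controls, and AK4, SHMT1 and TK2 are lower against control shRNA only.

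In the deoxynucleotide branch DUT had 10.59, 10.53 and 10.45 with IKKα shRNA, against 11.68, 11.70 and 11.58 with control shRNA and 11.64, 11.61 and 11.57 with vehicle. TYMS had 11.48, 11.29 and 11.43 with IKKα shRNA, against 12.32, 12.26 and 12.33 with control shRNA and 12.23, 12.08 and 12.18 with vehicle. Both were lower on every IKKα shRNA array than on any array of either control, DUT by -1.13 ± 0.06 against control shRNA (adjusted p = 3.94e-11) and TYMS by -0.91 ± 0.07 (adjusted p = 2.03e-08). All 4 probe sets of DUT fell with AZ628 in both lines, and DUT's change with IKKα shRNA was not distinguished from its change with AZ628 in WiDr (difference -0.04 ± 0.08, adjusted p = 0.725). That depended on the probe set, since the 4 ranged from -0.47 to -0.04, and their average gave -0.24 (adjusted p = 0.0162).

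The 2 subunits of ribonucleotide reductase parted. RRM1 had 11.05, 11.00 and 11.12 with IKKα shRNA, against 11.73, 11.71 and 11.67 with control shRNA and 11.58, 11.41 and 11.53 with vehicle. RRM2 had 11.43, 11.34 and 11.53 with IKKα shRNA, against 11.38, 11.27 and 11.42 with control shRNA and 11.34, 11.25 and 11.40 with vehicle. RRM1 fell without overlap (-0.65 ± 0.07, adjusted p = 1.07e-06), whereas the RRM2 arrays overlapped and the difference was 0.07, with a 95% confidence interval from -0.07 to 0.22. Within arrays RRM2 minus RRM1 changed by 0.72 with IKKα shRNA, the opposite sign of its change with AZ628, and the groups did not overlap (exact permutation p = 0.1). DTYMK fell by 0.29 with IKKα shRNA, and DCTD differed by -0.11 (adjusted p = 0.362).

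Purine synthesis fell in part. PPAT had 10.37, 10.33 and 10.32 with IKKα shRNA, against 11.18, 11.15 and 11.06 with control shRNA and 11.03, 10.96 and 11.08 with vehicle, a difference of -0.79 ± 0.05 from control shRNA (adjusted p = 3.57e-09). ATIC had 10.96, 10.92 and 10.90 with IKKα shRNA, against 11.55, 11.52 and 11.49 with control shRNA, a difference of -0.60 ± 0.05 (adjusted p = 3.78e-08). Neither gene's groups overlapped, and AK4 (-0.57), PRPS2 (-0.48), MTHFD1 (-0.47), PFAS (-0.38) and GMPS (-0.20) fell as well. The PFAS call ended when its probe sets were averaged (adjusted p = 0.0877). PRPS1 (-0.09), GART (-0.05), ADSL (0.00) and IMPDH1 (-0.11) did not pass. IMPDH1 had 11.14, 11.13 and 11.19 with IKKα shRNA, against 11.32, 11.25 and 11.22 with control shRNA and 11.45, 11.29 and 11.35 with vehicle. IMPDH2 had 12.01, 11.98 and 11.92 with IKKα shRNA, against 12.19, 12.30 and 11.97 with control shRNA and 12.36, 12.38 and 12.40 with vehicle. Its arrays overlapped those of control shRNA, through replicate 3 of that group, and lay below all those of vehicle. The IMPDH2 difference from control shRNA was -0.19 (adjusted p = 0.0541), and it passed without control shRNA replicate 3 (-0.28, adjusted p = 0.00237). With each probe set as its own entry, 5 of the 6 of IMPDH2 passed as lower against control shRNA. Their range was -0.29 to -0.19, and the probe set used here had the smallest change. PFAS had 9.17, 9.09 and 9.00 with IKKα shRNA, against 9.54, 9.47 and 9.38 with control shRNA, without overlap.

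PAICS, across the shared promoter from PPAT, had 11.96, 11.92 and 12.04 with IKKα shRNA, against 12.05, 11.79 and 11.86 with control shRNA, overlapping groups with a difference of 0.07 (adjusted p = 0.612). A second PAICS probe set had 11.39, 11.29 and 11.51 with IKKα shRNA, against 11.80, 11.65 and 11.73 with control shRNA, and was lower on every IKKα shRNA array. The 2 PAICS probe sets therefore disagree with IKKα shRNA, while with AZ628 both fell. PPAT minus PAICS, with the first probe set, changed by -0.86 with IKKα shRNA and by 0.37 with AZ628 in WiDr.

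Pyrimidine synthesis showed little change. CTPS1 had 11.03, 10.98 and 11.05 with IKKα shRNA, against 11.07, 11.08 and 11.00 with control shRNA, and CAD had 9.37, 9.28 and 9.24 with IKKα shRNA, against 9.29, 9.40 and 9.32 with control shRNA. The arrays of both genes overlapped, with differences of -0.02 (95% confidence interval -0.17 to 0.12) and -0.04 (-0.19 to 0.12). DHODH (-0.19) and CTPS2 (-0.16) did not pass, though CTPS2 passed as lower when its probe sets were averaged (-0.39, adjusted p = 0.000178). CMPK1 had 11.67, 11.62 and 11.81 with IKKα shRNA, against 12.25, 12.21 and 12.26 with control shRNA, and fell by 0.54 (adjusted p = 4.33e-06), the opposite of its rise with AZ628. UMPS, at 11.69, 11.63 and 11.77 with IKKα shRNA against 11.93, 11.81 and 11.81 with control shRNA, fell by 0.15 (adjusted p = 0.0438), a call that ended when arrays were centred on their medians (adjusted p = 0.144) and without replicate 1 or 2 of either group (adjusted p between 0.0534 and 0.183).

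In salvage APRT had 11.10, 11.07 and 11.04 with IKKα shRNA, against 11.46, 11.55 and 11.42 with control shRNA, and fell by 0.41. TK1 had 11.32, 11.25 and 11.25 with IKKα shRNA, against 11.61, 11.65 and 11.61 with control shRNA, and fell by 0.35. Both were lower on each IKKα shRNA array. TK2 had 6.18, 6.10 and 5.87 with IKKα shRNA, against 6.59, 6.85 and 6.95 with control shRNA and 6.06, 6.24 and 6.17 with vehicle, so that it fell by 0.75 against control shRNA while overlapping vehicle. Of its 3 probe sets 1 fell against control shRNA (range -0.75 to -0.13). Against vehicle 1 passed as lower and 1 as higher (range -0.33 to 0.34). HPRT1 had 11.17, 11.14 and 11.23 with IKKα shRNA, against 11.31, 11.35 and 11.35 with control shRNA, a difference of -0.16 (adjusted p = 0.0663) that passed in 3 processing alternatives (adjusted p between 0.028 and 0.0446). SLC29A1 had 7.47, 7.33 and 7.46 with IKKα shRNA, against 7.35, 7.48 and 7.35 with control shRNA, and UCK2 had 10.41, 10.42 and 10.31 with IKKα shRNA, against 10.36, 10.32 and 10.24 with control shRNA. The groups of both genes overlapped, and UCK2 differed by 0.07, SLC29A1 by 0.03, UCK1 by -0.01, DCK by 0.04 and DGUOK by 0.07, none of them passing.

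Which control was used decided part of these calls. Against vehicle 14 members fell with IKKα shRNA and 3 rose, where 19.8% of all genes fell and 16.4% rose. The 12 that fell against both controls were DUT, TYMS, RRM1, DTYMK, PPAT, ATIC, PRPS2, MTHFD1, PFAS, CMPK1, APRT and TK1. Both comparisons use the same IKKα shRNA arrays, and the share of all genes that fell in both was not taken. AK4, GMPS, SHMT1, TK2 and UMPS passed as lower against control shRNA and not against vehicle, IMPDH1 (-0.21) and IMPDH2 (-0.41) passed as lower against vehicle and not against control shRNA, and CAD (0.27), DCK (0.29) and UCK1 (0.20) rose against vehicle. For IMPDH2 this depended on the probe set used, since 5 of its 6 probe sets passed as lower against control shRNA too. PRPS2 had 8.86, 8.78 and 8.81 with IKKα shRNA, against 9.31, 9.29 and 9.29 with control shRNA and 9.31, 9.22 and 9.33 with vehicle, and lay below both controls on every array. APRT, with the IKKα shRNA values above, had 11.57, 11.58 and 11.61 with vehicle and was also below both controls. Against vehicle the calls of CMPK1, MTHFD1, IMPDH1, DCK and UCK1 each ended without at least 1 of the arrays, CMPK1 without IKKα shRNA replicate 2 (adjusted p = 0.0614), MTHFD1 without IKKα shRNA replicate 2 or vehicle replicate 1 (0.0767 and 0.0861) and IMPDH1 without vehicle replicate 1 (0.0696). Averaging the probe sets also ended the IMPDH1 call (-0.08, adjusted p = 0.274). DCK passed no longer without IKKα shRNA replicate 3 or vehicle replicate 2 (adjusted p = 0.0639 and 0.0791), nor UCK1 without IKKα shRNA replicate 1 or 2 or vehicle replicate 1 or 3 (adjusted p between 0.061 and 0.141).

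Control shRNA itself differed from vehicle, with 10 members higher and 2 lower, where 11.6% of all genes were higher and 10.6% lower. These comparisons share arrays with those above. AK4 had 9.61, 9.60 and 10.01 with control shRNA, against 9.15, 9.24 and 9.15 with vehicle, and its values of 9.05, 9.26 and 9.19 with IKKα shRNA lay among those of vehicle. SHMT1 had 9.17, 9.20 and 9.33 with control shRNA, against 9.05, 8.52 and 8.88 with vehicle, and 8.71, 8.64 and 8.77 with IKKα shRNA. TK2 (0.64), AK4 (0.56), SHMT1 (0.42), CMPK1 (0.31) and CAD (0.30) were the members that differed most between control shRNA and vehicle. IMPDH2 (-0.22) and DGUOK (-0.15) were lower with control shRNA. Averaging the probe sets ended the SHMT1 call (0.10, adjusted p = 0.108). MTHFD1 had 10.61, 10.57 and 10.54 with control shRNA, against 10.44, 10.26 and 10.27 with vehicle, and UCK1 had 7.45, 7.60 and 7.44 with control shRNA, against 7.21, 7.35 and 7.32 with vehicle, both without overlap. These calls were thin, since leaving out any one of the 6 arrays gave 5 to 7 members that passed, and the calls of CTPS1, CTPS2, DGUOK and UCK1 ended whichever array was left out (adjusted p up to 0.179).

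Set against each other in WiDr, the change with IKKα shRNA (from control shRNA) lay above the change with AZ628 (from vehicle) for 27 members, where 20.1% of all genes did, and below it for 4, where 22.3% did. CTPS1 differed most between the perturbations, by 3.22 ± 0.09 (adjusted p = 3.18e-14), followed by CAD (2.34), UCK2 (1.94), PFAS (1.88), PAICS (1.69), GART (1.65) and RRM2 (1.59). For PFAS 1 of the 4 probe sets passed (range 0.18 to 1.88), and without the probe sets that may bind related transcripts its value was 0.40 (adjusted p = 0.0566). The 4 below were CMPK1 (-1.06), SHMT1 (-0.69), UCK1 (-0.48) and CTPS2 (-0.32), the last of which did not pass without any one of 6 of the 12 arrays (highest adjusted p = 0.0814, without control shRNA replicate 2) or with arrays centred on their medians (-0.22, adjusted p = 0.111). APRT, one of the 27 (0.18, adjusted p = 0.0479), did not pass without any one of 11 of the arrays (highest adjusted p = 0.115, without control shRNA replicate 3). AK4 and SLC29A1, also among the 27, each rested on 1 probe set (ranges -0.40 to 0.52 and -0.29 to 0.57). Over the alternatives their lowest values were 0.06 and 0.05, with adjusted p up to 0.77 and 0.737. No difference passed for DUT, TK2 (-0.04, adjusted p = 0.892), IMPDH2 (-0.17, adjusted p = 0.212) and RRM1 (-0.24, adjusted p = 0.066), but RRM1 passed as lower in 4 processing alternatives and without WiDr vehicle replicate 1 (adjusted p = 0.0477), with repeated quantile normalization at -0.30 (adjusted p = 0.00562). DCTD, second of its branch here at 0.79, had 10.83, 10.81 and 10.72 with AZ628, against 11.80, 11.58 and 11.69 with vehicle, and 11.64, 11.57 and 11.82 with IKKα shRNA, against 11.81, 11.71 and 11.84 with control shRNA, so that it lay apart with AZ628 and overlapped with IKKα shRNA. Of the 30 members that fell with AZ628 in WiDr, 15 fell with IKKα shRNA and 15 did not pass. CMPK1 and SHMT1 fell with IKKα shRNA without having fallen with AZ628 in WiDr. The share of all genes that fell with both was not taken, so these counts do not tell the members from other genes. Over the 35 genes the 2 sets of differences, which share no arrays, correlated with Pearson r = -0.097 and Spearman rho = -0.106, given as a description.

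**Figure D4:**
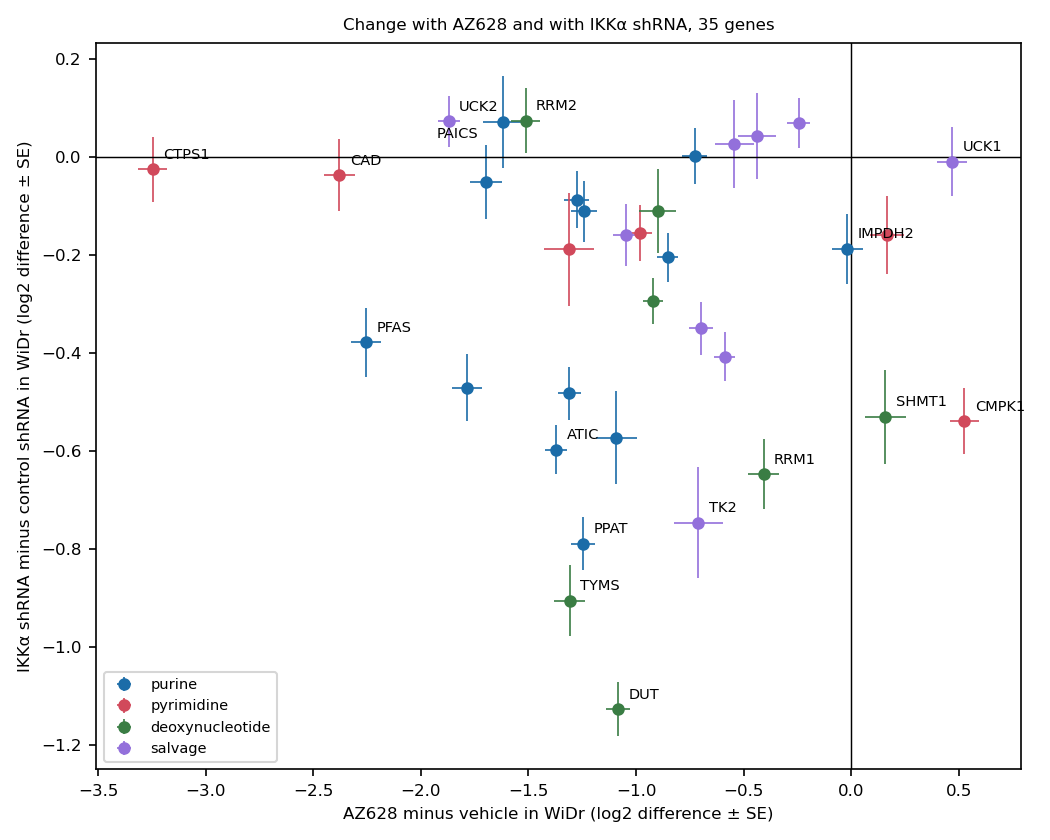
Log2 difference with AZ628 from vehicle (horizontal axis) against log2 difference with IKKα shRNA from control shRNA (vertical axis) in WiDr for the 35 measured genes, coloured by branch, with bars of 1 SE. CTPS1, CAD, UCK2 and RRM2 lie far left near 0 on the vertical axis, and DUT, at -1.08 and -1.13, is the lowest point.

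Without treatment the 2 lines differed in some members. With vehicle 13 were higher and 4 lower in HT29 than in WiDr, where 16.9% of all genes were higher and 15.3% lower. AK4 differed most, with 11.01, 10.89 and 10.94 in HT29 and 9.15, 9.24 and 9.15 in WiDr, a difference of 1.77 ± 0.10 (adjusted p = 2.1e-10). CTPS2 had 9.55, 9.46 and 9.56 in HT29 and 8.56, 8.65 and 8.53 in WiDr, a difference of 0.94 ± 0.08. SHMT1 (0.78), GMPS (0.45), PRPS2 (0.38), UCK2 (0.36), UCK1 (0.30) and CAD (0.25) were also higher in HT29, the UCK2 value resting on 1 of 2 probe sets (average 0.17, adjusted p = 0.106), and MTHFD1 (-0.59), PAICS (-0.45), PPAT (-0.35) and DUT (-0.19) were lower. UCK1 had 7.69, 7.54 and 7.55 in HT29 and 7.21, 7.35 and 7.32 in WiDr, and DUT had 11.37, 11.43 and 11.44 in HT29 and 11.64, 11.61 and 11.57 in WiDr. The CAD call ended without WiDr vehicle replicate 3 or HT29 vehicle replicate 3 (adjusted p = 0.0564 and 0.0502), and the DUT call without HT29 vehicle replicate 1 (adjusted p = 0.0523). The vehicle arrays of AK4, CTPS2, SHMT1 and MTHFD1 did not overlap between the lines, as was the case for 7463 of all 18132 genes.

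Of 55 measured genes in neighbouring pathways, chosen as lists of folate one-carbon metabolism, nucleotide interconversion, breakdown, deoxynucleotide removal and transport, 24 fell and 15 rose with AZ628 in WiDr, where 21.1% of all genes fell and 23.4% rose. In HT29 24 fell and 16 rose, where 21.0% of all genes fell and 22.5% rose. With IKKα shRNA 20 fell and 10 rose against control shRNA, where 19.0% of all genes fell and 15.9% rose, so that the rises lay near the share of all genes. The folate list, which supplies one-carbon units to purines and dTMP, stood closest to the members, with 7 of 9 genes lower in WiDr and 6 of 9 in HT29. Its mitochondrial enzymes MTHFD1L (-2.46 ± 0.07 in WiDr and -2.35 ± 0.07 in HT29) and MTHFD2 (-1.48 ± 0.08 and -1.75 ± 0.08) and the carrier SLC25A32 (-1.82 ± 0.06 and -1.65 ± 0.06) fell with MTHFD1. With IKKα shRNA MTHFD2 rose by 1.13 ± 0.08 against control shRNA (adjusted p = 5.92e-09), while MTHFD1 and TYMS fell. Against vehicle the highest value in the folate list was 0.66, so the MTHFD2 difference was smaller against that control.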

How the data were processed

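The deposited table holds log2 signals of 49395 probe sets on 18 arrays, summarised by the authors with RMA. The submitters' processing notes name RMA, limma and R 3.0.2. RMA draws arrays to a common distribution and compresses low signals, which hides a change common to most genes and understates changes of dim ones. Probe sets with 1 symbol in the platform annotation (44994) were kept, and each of 18132 genes was represented by its brightest probe set on average. Group means were fitted on all 18 arrays with limma 3.58.1 in R 4.3.3 (12 residual degrees of freedom, prior 4.49) with eBayes and Benjamini-Hochberg adjustment over all genes, two-sided. The fit was tested on simulated data, where it recovered fewer changes in the difference between the lines than in any other comparison, and there missed the share first asked of it, so small differences between the lines can go uncalled. Plots used matplotlib 3.10.9 and Python 3.11.15. No genes were left out as dim. The number of arrays limits the precision, and levels of different probe sets were not compared.

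Members, branches and lists were chosen with earlier results of these data known. All 37 members are named. Values on every array are given for 11 members at regulated or committed steps and for the 2 members of each branch that passed with the largest difference in each comparison (arrays already given under another comparison are not repeated), and at most 6 neighbouring genes a comparison are named, those passing with the largest difference. Alternatives covered the choice of probe set, the normalization, the model and leaving out each array.

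Deviations of same-numbered arrays from their group means correlated weakly between groups, with mean r from -0.13 to 0.18 over the pairs of groups. A pairing by number was neither shown nor excluded. Promoter sequences are RefSeq's. The labels describe a whole-transcript labelling assay, but the probe sets are named as on a 3′ array.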

Additional observations from a re-analysis of the deposited data

Results flagged for a closer look

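The change with AZ628 differed between the lines (HT29 less WiDr) and passed limma's test for 3 members upward and 1 downward, of 35, where 4.06% and 5.13% of all genes did. The count of 4 lies near that background. CTPS1 gave 0.64 and CAD gave 0.50, both having fallen less in HT29. For TK2 the difference was 0.52 and for SHMT1 it was -0.50. The CAD call ended only with at least 2-fold required, among the alternatives tried. The CTPS1 call ended under that requirement too, and 2 of its 4 probe sets passed when each was its own entry (range 0.23 to 0.64).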

How the results depend on the processing

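No member changed direction while called in any alternative. With at least 2-fold required, the members called numbered 18 with AZ628 in WiDr, 19 in HT29 with AZ628, 0 for the difference between the lines, 1 for IKKα shRNA against control shRNA, 1 for IKKα shRNA against vehicle, 0 for control shRNA against vehicle, 12 for IKKα shRNA against AZ628 and 1 for HT29 against WiDr with vehicle. With every probe set as its own entry and a member called where most of its probe sets passed in one direction, 2 members passed for the difference between the lines, 7 for control shRNA against vehicle and 11 for HT29 against WiDr. With the arrays of the comparison alone 6 passed for control shRNA against vehicle, and with an intensity trend and robust prior 8 passed for the difference between the lines. Leaving out each array in turn gave 32 to 33 members for AZ628 in WiDr, 31 to 33 in HT29, 2 to 4 for the difference between the lines, 16 to 18 for IKKα shRNA against control shRNA, 14 to 18 against vehicle, 5 to 7 for control shRNA against vehicle, 29 to 31 for IKKα shRNA against AZ628 and 14 to 17 for HT29 against WiDr. The difference between the lines had 2 members without WiDr AZ628 replicate 2, HT29 AZ628 replicate 2 or HT29 vehicle replicate 2, and control shRNA against vehicle lost members whichever array was left out. With the replicate number as a block the counts were 32, 33, 3, 16, 17, 11, 30 and 16, in the order AZ628 in WiDr, AZ628 in HT29, the difference between the lines, IKKα shRNA against control shRNA and against vehicle, control shRNA against vehicle, IKKα shRNA against AZ628, and the lines. Of 18 arrays, 8 deviated most like an array of their own number, a count that neither shows nor excludes a pairing by number. The causes of the calls that moved were not tested. PPAT, PAICS, GMPS, DTYMK and HPRT1 had no probe set free of the suffixes that mark possible binding of related transcripts.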

Other observations

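Genes of nucleotide breakdown moved both ways in each line. With AZ628 7 of 16 fell and 5 rose in WiDr, where 21.1% of all genes fell and 23.4% rose, and 6 fell and 7 rose in HT29, where 21.0% fell and 22.5% rose. The phosphorylase UPP1, which splits uridine, fell by 1.52 in WiDr and by 1.32 in HT29, and PNP, which splits inosine and guanosine, fell by 1.47 and 1.24. DPYD, the first enzyme of pyrimidine base breakdown, rose by 1.33 in WiDr and 1.35 in HT29, and XDH, which makes uric acid, rose by 1.12 and 1.32. DCTPP1, which removes unwanted dNTPs, fell by 1.54 in WiDr and by 1.33 in HT29.

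NT5E, the cell surface enzyme that makes adenosine from AMP, was the neighbouring gene whose AZ628 effect differed most between the lines. The difference was -0.72 in WiDr and 0.65 in HT29, and the HT29 effect minus the WiDr effect was 1.37 ± 0.16 (adjusted p = 2.61e-05). With IKKα shRNA GDA, the guanine deaminase, fell by 1.89, NT5E by 1.23, ADSS1, which starts AMP from IMP, by 1.14 and SAMHD1, a dNTP hydrolase, by 0.64, while SLC28A3, a concentrating nucleoside transporter, rose by 1.34, all against control shRNA. Against vehicle the lowest values in the lists of GDA and ADSS1 were -1.39 and -0.65, and the highest in that of SLC28A3 was 1.10. The differences of GDA, ADSS1 and SLC28A3 were therefore smaller against vehicle. For NT5E and SAMHD1 the values against vehicle are not given here.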
